A study of Homo sapiens with 9 samples.

Results

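The subunits of the mitochondrial respiratory chain and of ATP synthase that are encoded in the nucleus were followed by RNA sequencing in 3 established human triple-negative breast cancer cell lines, MDA-MB-436, MDA-MB-231 and MDA-MB-453. Each line gave 1 library labelled GSK343, 1 labelled shEZH2 and 1 control, so there were 9 libraries and 3 of each kind. GSK343 is a chemical inhibitor of EZH2, the enzyme that places methyl groups on lysine 27 of histone H3, and shEZH2 names a short hairpin RNA aimed at the EZH2 transcript. The sample labels give no treatment for the controls whereas the column headers call them shControl, so whether they carried a control hairpin is not known; the dose, the time and the hairpin are not stated in the labels. Genes were taken by symbol (NDUFA, NDUFB, NDUFC, NDUFS and NDUFV with a number, SDHA to SDHD, symbols built on ATP5, and named UQCR, CYC1 and COX genes). The rule found 91 of the 58037 genes in the table, of which 78 are protein-coding and 13 are pseudogenes of ATP synthase subunits.

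Oxidative phosphorylation passes electrons from NADH and succinate through complexes I to IV to oxygen, and the proton gradient built on the way drives ATP synthase, complex V. Every complex except complex II is assembled from subunits of both the nuclear and the mitochondrial genome, so the nuclear genes must be expressed together with those of the mitochondrion. The nuclear subunits comprise the redox cores, with flavin, iron-sulfur clusters and haem, and many accessory subunits that stabilise the complexes.

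The 78 protein-coding genes comprised 36 of complex I, 4 of complex II, 9 of complex III, 11 of complex IV and 18 of complex V. NDUFA4 is counted with complex IV, where the protein is now placed, while ATP5S and ATP5SL stand in complex V by symbol only. Together they held 1.52%, 1.26% and 1.19% of the RPKM total (reads scaled to gene length and library size) in the GSK343-labelled libraries of MDA-MB-436, MDA-MB-231 and MDA-MB-453, and 1.54%, 1.19% and 1.30% in the shEZH2-labelled libraries. In the controls they held 1.99%, 1.25% and 1.39%. Sets of 3 values below keep this order of the lines. The MDA-MB-436 control therefore held the highest share of subunit transcripts of the 9 libraries.

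The libraries correspond to 14757000 to 18283400 reads. EZH2 measured 7.53, 5.77 and 7.99 RPKM in the GSK343-labelled libraries, 37.4, 16.4 and 16.2 RPKM in the shEZH2-labelled libraries and 38.9, 27.4 and 42.3 RPKM in the controls. The transcript named in the hairpin label was thus lowest under the inhibitor label, and in MDA-MB-436 the shEZH2-labelled library was at the level of its control. The intervention groups are named here by their labels only. MDA-MB-453 is known as a luminal line. Its 3 libraries had the epithelial cadherin CDH1 at 0.22, 0.21 and 0.05 RPKM (GSK343, shEZH2 and control). In the libraries of the other lines CDH1 was at most 0.443 RPKM as well. Of the luminal markers used, only CDH1 and TFF3 were under 1 RPKM in the libraries labelled MDA-MB-453. SPDEF was at 19.4, 20.1 and 5.90 RPKM and XBP1 at 46.5, 50.5 and 39.15 RPKM there. VIM, a mesenchymal filament gene, was at 210, 233 and 401 RPKM there. The 9 luminal markers used summed to 171, 176 and 157 RPKM in them, against 139 to 267 RPKM in the libraries of the other lines, and the 6 mesenchymal-like markers summed to 690, 730 and 1165 RPKM, against 550 to 1215 RPKM. Of the 9 luminal markers, 7 were at 1 RPKM or more in each library labelled MDA-MB-453, against 6 in each library of the other lines. All 6 mesenchymal-like markers reached 1 RPKM in all 9 libraries. None of these markers was at 0 in the libraries labelled MDA-MB-453. Subunit levels of these libraries lay between those of MDA-MB-436 and MDA-MB-231 for 60.0%, 88.0% and 57.3% of the 75 tested members under GSK343, shEZH2 and control, against 73.8%, 83.0% and 47.1% of all tested genes. They are called libraries labelled MDA-MB-453, and results are also given without them. In comparisons of conditions the lines serve as the replicates, and p-values measure only how far the differences vary between them. Because whole cultures were sequenced, fewer cells of a kind and less RNA per cell cannot be told apart.

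Levels per gene spanned a wide range within each complex. The most abundant members were NDUFS5, an accessory subunit of complex I, with a mean of 374 RPKM over the 9 libraries, SDHB, the iron-sulfur subunit of complex II, with 44.2 RPKM, CYC1, the haem-bearing cytochrome c1 of complex III, with 302 RPKM, COX8A of complex IV with 274 RPKM and ATP5B, the catalytic beta subunit of ATP synthase, with 306 RPKM. The lowest were NDUFA7 (0.391 RPKM), SDHC, a membrane anchor of complex II (5.36 RPKM), UQCRB (9.05 RPKM), COX6C (18.6 RPKM) and ATP5L2 (0.0543 RPKM). NDUFA7, the complex I core gene NDUFV2 and ATP5L2, a copy of the gene for subunit g, did not reach 1 RPKM in 3 libraries and were not tested. NDUFV2 lay between 0.160 and 1.37 RPKM although its protein is a core subunit, and 28.4% of its exon bases are shared with another annotated gene. NDUFA7 rested on as few as 2 reads in a library, and ATP5L2 reached at most 0.254 RPKM. The other 75 members entered the test, with at least 72 reads in every library. The 13 pseudogenes did not exceed 0.921 RPKM in any library, and 4 of them were at 0 in all. Exons of 31 of the 78 genes share at least 10% of their bases with another gene, and how the counting treated those reads is not stated in the labels.

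Averaged over the 3 lines, subunit transcripts lay mostly below control under both labels, by small amounts that rarely passed the test. Not every line did so: in MDA-MB-231 under GSK343, 58 of 75 members lay above control, with a median of 0.19. The median log2 difference of the 75 tested members was -0.14 for libraries labelled GSK343 against controls, beside 0.06 for all 12965 tested genes. Below 0 were 60 of the 75 estimates, against 42.8% of all genes. For libraries labelled shEZH2 the median was -0.20, beside 0.05 for all genes, with 59 of 75 below 0 (43.7% of all genes). With both interventions averaged it was -0.19, beside 0.05, with 60 of 75 below 0 (43.1% of all genes). This last share also stands beside the counts by complex below. These comparisons share the 3 control libraries. With limma on log2(RPKM + 1), line as a term and Benjamini-Hochberg adjustment over all tested genes, 0 of 75 members passed an adjusted p of 0.05 for GSK343 (7.85% of all genes did, 6.25% higher and 1.60% lower). At an unadjusted p under 0.05, 5 members were lower for GSK343, beside 8.24% of all genes. For shEZH2 1 of 75 passed, ATP5J2, which was lower (10.6% of all genes passed, 8.35% higher and 2.28% lower). For the mean of both 1 of 75 passed, again ATP5J2 (16.5% of all genes passed, 12.2% higher and 4.30% lower). At an unadjusted p under 0.05, 13 members were lower and 0 higher in each of these 2 comparisons. Of all genes 9.36% and 11.1% were lower at that level for shEZH2 and for the mean, and 2491 and 2827 of the 12965 were higher. Without the libraries labelled MDA-MB-453, the median for the mean of both interventions was -0.16 and 0 members passed. Of all genes 180 passed there, against 2141 with these libraries. Without MDA-MB-436 the median was -0.05, against -0.31 without MDA-MB-231.

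Libraries labelled GSK343 and shEZH2 did not differ detectably from each other in any subunit gene. In their direct comparison 0 of 75 members passed (0.00% of all genes), and 0 members had an unadjusted p under 0.05, against 2.28% of all genes. The median difference was 0.06, beside 0.01 for all genes. It was -0.0041 with the libraries set to a common sum, and -0.06 without the MDA-MB-231 library labelled GSK343. For ATP5J2 the difference between the labels was 0.09 ± 0.33 on the log2 scale (limits of the 95% interval), which leaves room for a difference in either direction.

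In complex I, which takes electrons from NADH, none of the 34 tested genes passed for either label or for their mean, and 24 of 34 lay below 0 for the mean of both (median -0.18). NDUFS6, a subunit of the peripheral arm, had 60.6, 43.2 and 44.2 RPKM in the GSK343-labelled libraries, 60.8, 32.0 and 44.4 RPKM in the shEZH2-labelled libraries and 84.5, 52.9 and 52.0 RPKM in the controls. It was below control in all 6 intervention libraries of the 3 lines, and its mean log2 difference of -0.40 ± 0.28 (95% interval) just missed the threshold (limma, adjusted p = 0.0529). NDUFB2, an accessory subunit of the membrane arm, had 8.20, 5.30 and 4.65 RPKM under GSK343, 7.34, 4.38 and 5.71 RPKM under shEZH2 and 10.5, 5.51 and 8.26 RPKM in the controls (-0.38 ± 0.29, limma adjusted p = 0.069). It too was below its own control in each line, although 35.9% of its exon bases overlap other genes. NDUFA9, an accessory subunit near the quinone site, had a difference of -0.31 ± 0.28 (limma adjusted p = 0.113) at a low level of 0.658 to 3.74 RPKM. NDUFS5, the most abundant, had 469, 230 and 329 RPKM under GSK343, 493, 201 and 318 RPKM under shEZH2 and 725, 236 and 363 RPKM in the controls. The largest gap to control for NDUFS5 was thus in MDA-MB-436.

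In complex II, which oxidises succinate and belongs to the citric acid cycle as well, the lowest estimate was that of SDHD, a membrane anchor. SDHD had 8.71, 16.2 and 10.1 RPKM under GSK343, 7.52, 14.998 and 12.2 RPKM under shEZH2 and 10.4, 17.5 and 21.1 RPKM in the controls. Every intervention library was below its control, most of all in the libraries labelled MDA-MB-453, and the mean difference was -0.45 ± 0.32 (limma, adjusted p = 0.0596). SDHA, the flavoprotein, and SDHB differed by -0.12 ± 0.25 and -0.15 ± 0.30 (limma adjusted p = 0.495 and 0.486). SDHC, the other anchor, was at -0.01 ± 0.28.

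All 9 complex III genes had estimates below 0 for the mean of both interventions, between -0.29 and -0.07, and 0 passed. UQCRFS1, the Rieske iron-sulfur protein, had 16.7, 22.5 and 17.6 RPKM under GSK343, 16.0, 16.1 and 17.1 RPKM under shEZH2 and 20.8, 23.2 and 21.3 RPKM in the controls. The shEZH2-labelled libraries lay below all 3 controls, while the MDA-MB-231 library labelled GSK343 lay among them (-0.29 ± 0.26 for the mean of both, limma adjusted p = 0.114). UQCRC2, a core protein, had 54.2, 18.4 and 34.4 RPKM under GSK343, 56.0, 18.7 and 36.2 RPKM under shEZH2 and 71.0, 18.0 and 52.0 RPKM in the controls. In MDA-MB-231 it was level with the control, and in the other lines below it. UQCRQ, a small subunit, differed by -0.22 ± 0.31 (limma adjusted p = 0.305).

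Complex IV, cytochrome c oxidase, had the median closest to 0, -0.12, with 8 of 11 estimates below 0. NDUFA4 had 34.6, 19.3 and 22.6 RPKM under GSK343, 33.0, 16.2 and 22.9 RPKM under shEZH2 and 50.2, 16.4 and 40.0 RPKM in the controls. It lay below control in MDA-MB-436 and under the MDA-MB-453 label, and near or above it in MDA-MB-231 (-0.41 ± 0.34, limma adjusted p = 0.0925). COX7B had 36.2, 32.9 and 31.7 RPKM under GSK343, 35.4, 28.8 and 30.9 RPKM under shEZH2 and 52.2, 25.4 and 43.4 RPKM in the controls. It was below control in MDA-MB-436 and under the MDA-MB-453 label and above it in MDA-MB-231 (-0.24 ± 0.33, limma adjusted p = 0.298). COX7C differed by -0.30 ± 0.33 (limma adjusted p = 0.19), and COX8A by 0.11 ± 0.32 in the other direction (limma adjusted p = 0.646).

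Complex V, ATP synthase, had the lowest median of the 5 complexes, -0.27, with 15 of 17 estimates below 0. ATP5J2 (ENSG00000241468.7, GRCh38 chr7:99448475-99466331, minus strand) encodes subunit f of the membrane part and shares 8.6% of its exon bases with the neighbouring PTCD1 and their readthrough gene. ATP5J2 had 19.7, 25.7 and 20.4 RPKM under GSK343, 21.2, 21.1 and 18.9 RPKM under shEZH2 and 35.6, 27.8 and 27.3 RPKM in the controls. All 6 intervention libraries lay below the lowest control, which is no support apart from the small p for which the gene is named. How many of all genes separate in this way was not counted, here or for the other genes described so. ATP5J2 fell by 0.54 ± 0.33 on the log2 scale under shEZH2 (limma, adjusted p = 0.0444) and by 0.49 ± 0.29 for the mean of both (limma, adjusted p = 0.0276), and was at -0.45 ± 0.33 under GSK343 (limma, adjusted p = 0.0925). The call was lost in several fits with fewer libraries. Without the MDA-MB-436 control the differences were smaller, -0.40 (shEZH2) and -0.35 (mean of both), with limma adjusted p = 0.117 and 0.111. In that fit 1639 and 2083 of all genes passed, against 1377 and 2141 with all 9 libraries. The call was also lost without the control labelled MDA-MB-453 (-0.55 and -0.51) and when the library with the MDA-MB-453 and GSK343 labels was left out (-0.54 and -0.50). The same held without each of the shEZH2-labelled libraries (-0.53 to -0.54 and -0.49). In these fits the estimates stayed near those of all 9 libraries. Fewer of all genes passed in them as well, 326 and 680 without the control labelled MDA-MB-453. For the mean of both the call was also lost when the MDA-MB-436 library labelled GSK343 was left out (-0.42). Leaving out the whole of MDA-MB-436 gave -0.45 and -0.35, with the call lost for both, and leaving out MDA-MB-231 gave -0.61 and -0.61, with the call lost for shEZH2. Without all libraries labelled MDA-MB-453 the differences were -0.55 and -0.51 (limma, adjusted p = 0.185 and 0.139), and 21 and 180 of all genes passed.

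Other ATP synthase genes came near the threshold. ATP5A1, the alpha subunit, had 30.7, 35.2 and 29.6 RPKM under GSK343, 30.5, 34.9 and 31.6 RPKM under shEZH2 and 43.0, 38.1 and 41.8 RPKM in the controls. Its intervention libraries all lay below the lowest control (-0.35 ± 0.26, limma adjusted p = 0.0704). ATP5G1, one of the genes for the rotating c subunit, had 23.0, 39.3 and 28.2 RPKM under GSK343, 25.8, 27.1 and 26.3 RPKM under shEZH2 and 39.4, 39.4 and 31.5 RPKM in the controls (-0.38 ± 0.31, limma adjusted p = 0.091). The shEZH2-labelled libraries were again under every control, and the MDA-MB-231 library labelled GSK343 was level with its control.

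**Figure D1:**
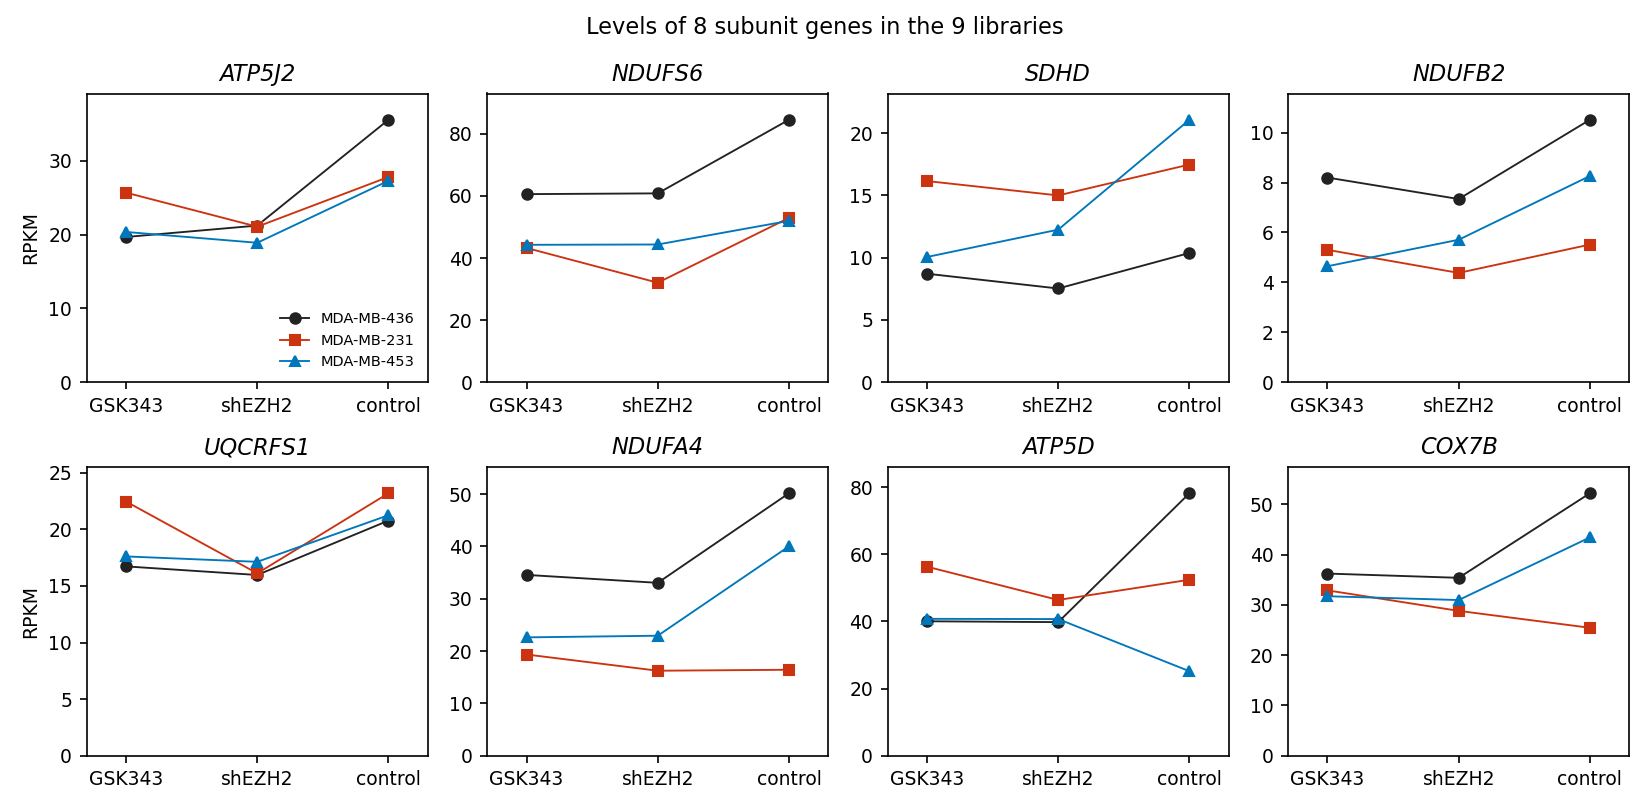
RPKM (vertical axes, from 0) of 8 subunit genes in the libraries labelled GSK343 and shEZH2 and in the controls, with 1 marker and line for each cell line. ATP5J2 and NDUFS6 lie below control in every line, whereas ATP5D is below control in MDA-MB-436 (40.0 and 39.8 against 78.2 RPKM) and above it under the MDA-MB-453 label (40.8 and 40.7 against 25.2 RPKM).

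The small average covers unlike lines. Within a line there is 1 library per condition, so the following are differences between libraries with no test, and both interventions of a line share its control. In MDA-MB-436 nearly every subunit gene lay below control: 73 of 75 under GSK343 and 74 of 75 under shEZH2, with medians of -0.41 and -0.41 on log2(RPKM + 1) beside 0.10 and 0.09 for all genes. Of the members, 75 and 74 lay under these medians of all genes. More than 1.25-fold below control on that scale were 48 members under GSK343 (12.8% of all genes) and 52 under shEZH2 (12.1% of all genes), and 0 and 0 were that far above it (28.2% and 26.1% of all genes). EZH2 itself was at 37.4 RPKM in the shEZH2-labelled library of this line, against 38.9 RPKM in its control. Across lines, leaving out that library gave member medians of -0.16 for shEZH2 and -0.16 for the mean of both. The shift in MDA-MB-436 ran through every complex. Medians were -0.32, -0.24, -0.38, -0.43 and -0.48 for complexes I to V under GSK343 and -0.37, -0.33, -0.40, -0.44 and -0.52 under shEZH2. Summed over the genes of a complex, RPKM differed from the control by -33.0% to -18.2% under GSK343 and by -32.0% to -21.1% under shEZH2. Complex V was the most reduced sum in both, at 740 and 751 RPKM against 1105 RPKM in the control.

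Under both labels the lowest gene in MDA-MB-436 was ATP5D, the delta subunit of the central stalk of ATP synthase, with 40.0 RPKM under GSK343 and 39.8 RPKM under shEZH2, against 78.2 RPKM in the control. The 13 subunit genes of the mitochondrial genome, which the rule leaves out, differed from the control by -30.2% and -31.0% in sum in the same libraries. Since 1 control library stands behind all of these values, a difference particular to that library cannot be told apart from a response. The counts below control in MDA-MB-436 stayed within 1.5 times these under each of 3 other scalings of the libraries. Across the 75 members the difference correlated with exon length (Pearson r = 0.43 under GSK343 and 0.40 under shEZH2) and inversely with mean level (r = -0.46 and -0.33), against 0.09, 0.08, -0.24 and -0.22 over all genes. These points come from shared libraries, and the part of length and level in the result was not tested.

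**Figure D2:**
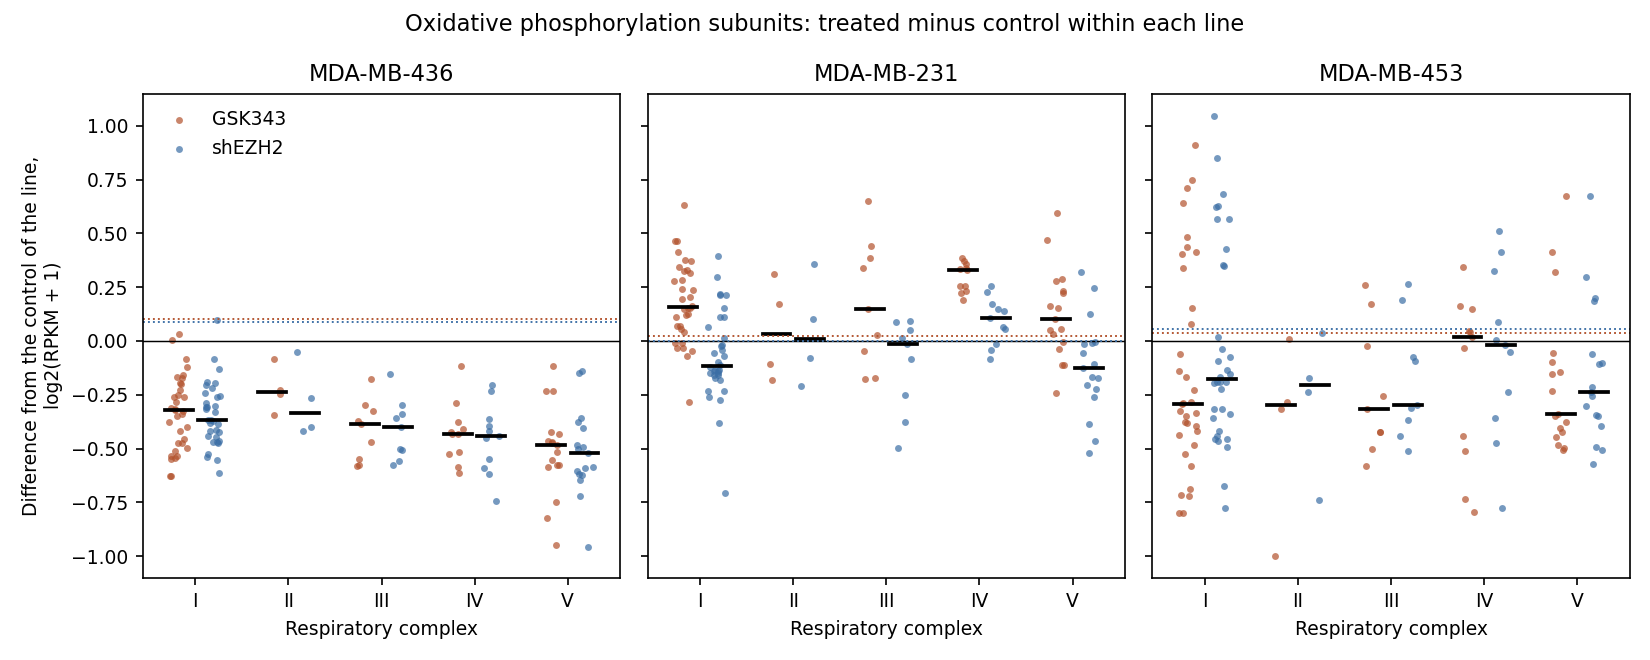
Differences on log2(RPKM + 1) between the library labelled GSK343 or shEZH2 and the control of the same line, for the 75 tested subunit genes by respiratory complex. Each dot is a gene, black bars are medians of a complex and dotted lines are medians of all tested genes; almost all dots of MDA-MB-436 lie below 0, those of MDA-MB-231 scatter around or above it, and those labelled MDA-MB-453 spread widely.

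In MDA-MB-231 the members lay mostly above control under GSK343 and mostly below it, by less, under shEZH2. Under GSK343 the median was 0.19, 58 of 75 members lay above control and 21 were more than 1.25-fold above it (19.1% of all genes), with 0 that far below (14.5% of all genes). Under shEZH2 the median was -0.06 and 48 of 75 lay below control, among them 24 of 34 in complex I and 14 of 17 in complex V. Past 1.25-fold were 7 members below control (17.6% of all genes) and 2 above it (20.8% of all genes). Under the medians of all genes, 0.02 for GSK343 and 0.0005 for shEZH2, lay 17 and 48 members. Complex IV was the highest under GSK343: all 11 genes were above control, with a median of 0.33 and a sum of 1021 RPKM against 826 RPKM. Mitochondrial transcripts took 21.6% of the RPKM total in that library and 13.96% in its control. With every library set to a common sum, the member median was 0.03, beside -0.09 for all genes (0.02 as deposited), and 4 members were past 1.25-fold above control and 5 below it.

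Libraries labelled MDA-MB-453 had members far from control on both sides. More than 1.25-fold below control were 34 members under GSK343 (23.4% of all genes) and 23 under shEZH2 (21.6% of all genes), and 12 and 14 were that far above it (30.1% and 31.7% of all genes). The medians were -0.29 and -0.19, beside 0.04 and 0.06 for all genes. SDHD had the lowest difference under GSK343 (-0.998), while NDUFB7, an accessory subunit of complex I, had the highest under shEZH2 (1.05).

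The genes above control under the MDA-MB-453 label tended to have high GC content. In 3 groups of 25 by the GC content of their transcripts, the group of highest GC (52.9% to 67.6%) had medians of 0.26 under GSK343 and 0.30 under shEZH2, and the group of lowest GC (up to 45.8%) -0.42 and -0.32, beside 0.39, 0.43, -0.30 and -0.28 for all genes in the same GC ranges. Over the 75 members the difference correlated with GC content at r = 0.68 and 0.70, and over all genes at 0.59 and 0.62. The control library labelled MDA-MB-453, set against the mean of the other controls, had r = -0.78 over the members and -0.72 over all genes. In MDA-MB-436 the correlations over the members were -0.26 and -0.11, and in MDA-MB-231 -0.14 and -0.19. GC content thus moves with the differences of the libraries labelled MDA-MB-453 in subunit genes and in genes at large, and its part in the result was not tested. In MDA-MB-436 the medians of these GC groups, from low to high, were -0.37, -0.43 and -0.42 under GSK343 and -0.37, -0.44 and -0.41 under shEZH2, so subunits of every GC content lay below control there.

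**Figure D3:**
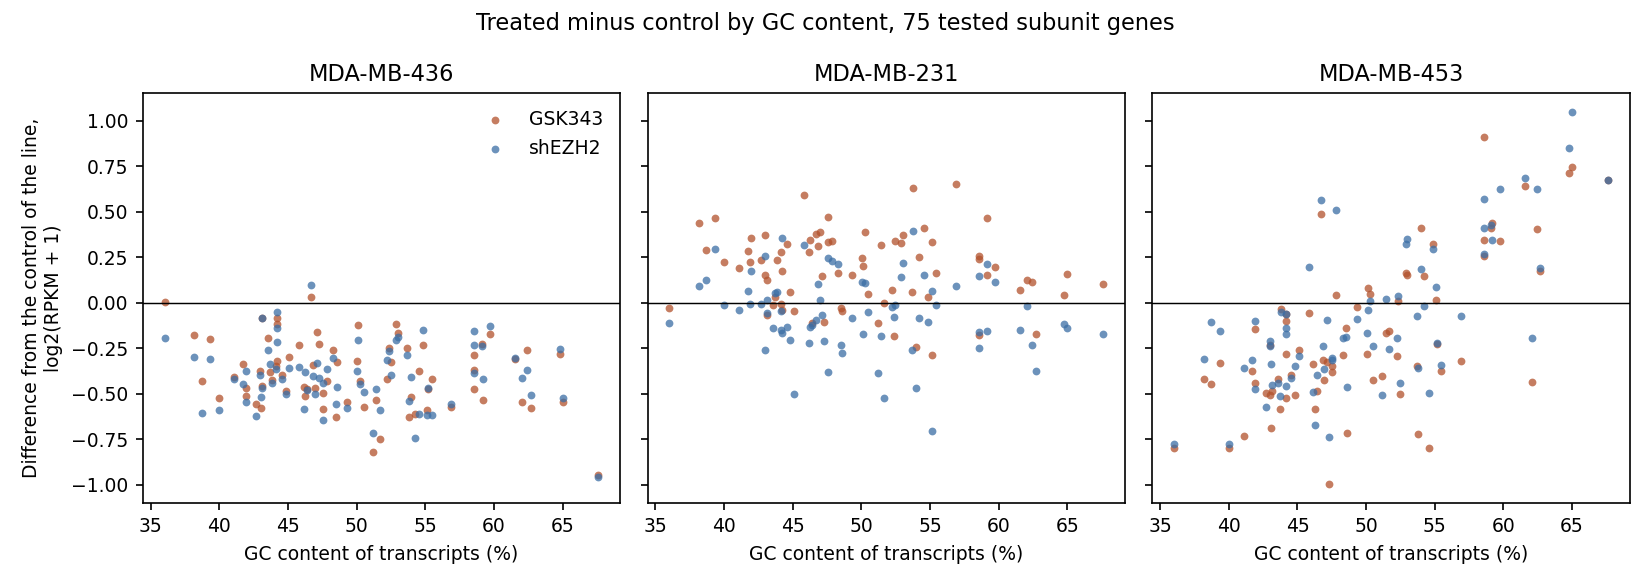
Difference from the control of the same line on log2(RPKM + 1) against the GC content of the transcripts in percent, for the 75 tested subunit genes, by line and label. The libraries labelled MDA-MB-453 climb with GC content (r = 0.68 under GSK343 and 0.70 under shEZH2), while those of MDA-MB-436 lie below 0 over the whole range.

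Whether a subunit responded differently between lines was tested for each gene over both interventions. With limma's F-test, 0 of 75 members passed after adjustment over all genes (0.0231% of all genes did). An unadjusted p under 0.05 in that test was reached by 28.6% of all genes and by a larger share of the members, which share the control libraries. The smallest p-values belonged to ATP5D (adjusted p = 0.08) and to NDUFS7, NDUFS8, NDUFB7 and ATP5O (limma adjusted p = 0.094 each). NDUFS7 and NDUFS8 carry iron-sulfur clusters of the electron path in complex I. NDUFS7 had 4.14, 3.50 and 2.99 RPKM under GSK343, 4.24, 3.02 and 3.39 RPKM under shEZH2 and 5.26, 3.37 and 1.43 RPKM in the controls. NDUFS8 had 21.5, 32.8 and 22.6 RPKM under GSK343, 21.6, 28.0 and 23.3 RPKM under shEZH2 and 26.9, 31.2 and 14.1 RPKM in the controls. Both were below control in MDA-MB-436 and above it under the MDA-MB-453 label, as was NDUFB7, with 196, 304 and 183 RPKM under GSK343, 199, 248 and 226 RPKM under shEZH2 and 286, 273 and 109 RPKM in the controls. The transcripts of ATP5D, NDUFB7, NDUFS7 and NDUFS8 have GC contents of 67.6%, 65.0%, 64.8% and 61.6%.

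ATP5O, which encodes the OSCP subunit that joins the stalk to the catalytic head, set MDA-MB-231 apart instead. It had 10.6, 8.29 and 7.50 RPKM under GSK343, 10.2, 6.95 and 7.79 RPKM under shEZH2 and 16.5, 5.71 and 9.84 RPKM in the controls. Only in MDA-MB-231 were its intervention libraries above the control. The test depends on the spread between the 2 intervention libraries of that line: with its library labelled shEZH2 left out 44 of 75 members passed (4137 of all genes), and with its library labelled GSK343 left out 26 (4021 of all genes).

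As among all genes, more subunits differed between lines than between conditions. Between MDA-MB-436 and MDA-MB-231, with treatment as the other term, 41 of 75 members (54.7%) passed, 30 higher in MDA-MB-436 and 11 lower. This was a smaller share than among all genes, of which 63.4% passed, 34.8% higher and 28.6% lower. The 3 libraries of a line are 1 culture line under 3 treatments. The p-values and intervals here thus measure only a spread between libraries, pooled over all 9, with those labelled MDA-MB-453 among them. Without the libraries labelled MDA-MB-453, 44 members and 8034 of all genes passed. The median difference was 0.20, beside 0.09 for all genes. By complex, 16 of 34 tested genes were higher and 3 lower in complex I, 2 of 4 and 1 in complex II, 4 of 9 and 1 in complex III, 4 of 11 and 2 in complex IV, and 4 of 17 and 4 in complex V.

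NDUFB9, an accessory subunit of the complex I membrane arm that shares 21.0% of its exon bases with other genes, had the largest difference, with 62.4, 64.8 and 88.4 RPKM in MDA-MB-436 (GSK343, shEZH2 and control) and 12.7, 7.32 and 9.85 RPKM in MDA-MB-231. The log2 difference was 2.75 ± 0.39 (limma, adjusted p = 1.08e-07). The next were NDUFS3, a core subunit near the quinone site (1.77 ± 0.32), UQCRC2 (1.65 ± 0.33), CYC1 (1.62 ± 0.39) and NDUFS5 (1.31 ± 0.36), with limma adjusted p-values of 9.62e-07, 2.2e-06, 8.63e-06 and 2.54e-05. CYC1 had 418, 439 and 624 RPKM in MDA-MB-436 and 158, 137 and 178 RPKM in MDA-MB-231, without overlap. NDUFA12, an accessory complex I subunit, was the furthest on the other side, with 16.4, 15.7 and 18.9 RPKM in MDA-MB-436 and 40.8, 37.3 and 41.2 RPKM in MDA-MB-231 (-1.18 ± 0.30, limma adjusted p = 1.43e-05). NDUFC2 (-1.07 ± 0.39), ATP5SL (-0.99 ± 0.32), SDHD (-0.81 ± 0.38) and ATP5L, subunit g of ATP synthase (-0.71 ± 0.33), were also lower in MDA-MB-436. Subunits of 1 complex thus stood on both sides, as SDHD and SDHA (0.996 ± 0.29) do in complex II.

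**Figure D4:**
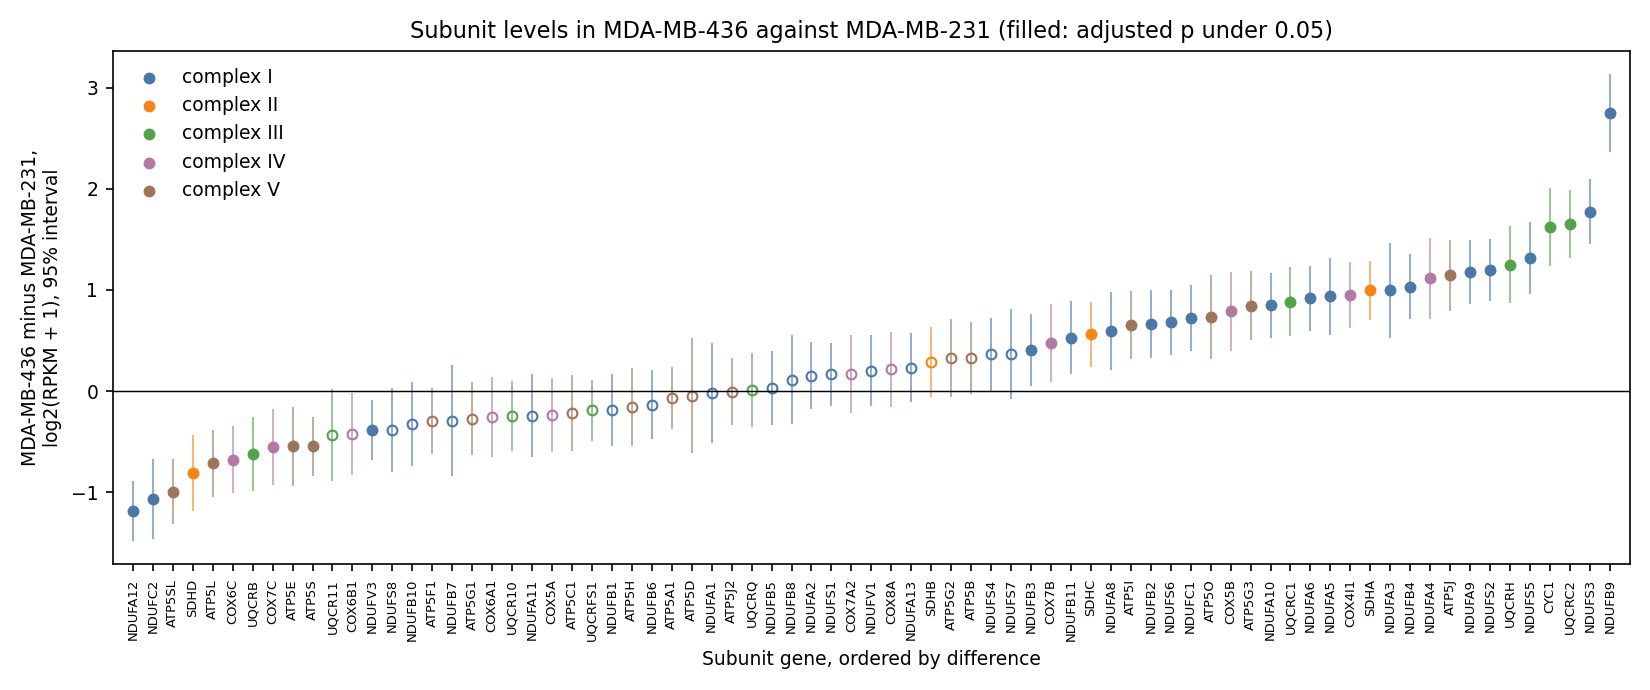
Log2(RPKM + 1) differences of MDA-MB-436 minus MDA-MB-231 for the 75 tested subunit genes with 95% intervals, coloured by complex, filled where the adjusted p is under 0.05. Of the 41 filled points 30 lie above 0, and NDUFB9 stands apart at 2.75.

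Genes that assemble, regulate and feed the complexes were described beside the subunits from lists of textbook members. For the mean of both interventions, 1 of 15 tested complex I assembly factors fell, NDUFAF4 (-0.68 ± 0.31, limma adjusted p = 0.00958), and 0 rose, beside 4.30% of all genes that fell and 12.2% that rose. NDUFAF4 had 7.75, 5.68 and 5.85 RPKM under GSK343, 7.39, 3.51 and 6.04 RPKM under shEZH2 and 13.1, 6.27 and 12.2 RPKM in the controls. Assembly factors of complexes II, III, IV and V passed in 0 of 4, 0 of 6, 0 of 21 and 0 of 3 tested genes. Among 14 tested regulators of mitochondrial biogenesis 3 fell and 0 rose (4.30% and 12.2% of all genes). They were TFAM, which packages and transcribes mitochondrial DNA (-0.67 ± 0.33, limma adjusted p = 0.0127), TFB2M, its transcription partner (-0.51 ± 0.28, 0.0216), and NRF1, a transcription factor of many respiratory genes (-0.41 ± 0.28, 0.0467). TFAM had 12.2, 11.6 and 11.1 RPKM under GSK343, 12.3, 9.01 and 10.7 RPKM under shEZH2 and 15.5, 15.9 and 24.3 RPKM in the controls. All intervention libraries were below the lowest control for this gene.

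For the lists that follow, the shares over all genes are again 4.30% lower and 12.2% higher. In the citric acid cycle 2 of 14 tested genes fell, FH, fumarate hydratase (-0.57 ± 0.28, limma adjusted p = 0.0132), and DLD, the dihydrolipoamide dehydrogenase (-0.52 ± 0.33, 0.0392). In coenzyme Q synthesis 2 of 11 fell, the methyltransferase COQ3 (-0.71 ± 0.28, limma adjusted p = 0.0047) and COQ7 (-0.44 ± 0.28, 0.0371). Of 78 genes of the mitochondrial ribosome, which translates the subunits of the mitochondrial genome, 8 fell and 1 rose, with a median of -0.17. MRPL1 (-0.91 ± 0.34), MRPL3 (-0.67 ± 0.30) and MRPS9 (-0.67 ± 0.30) had the smallest p-values (limma, adjusted p = 0.0038, 0.00857 and 0.00958), and MRPS24, named after its values were seen, rose by 0.70 ± 0.40 (limma, adjusted p = 0.0254). The 13 subunits of the mitochondrial genome passed in 0 cases, with medians of 0.32 under GSK343 and -0.15 under shEZH2. Without the libraries labelled MDA-MB-453, 0 of these 12 named genes passed (limma adjusted p from 0.0657 to 0.26). Of all genes 180 passed there, against 2141 with these libraries. The differences were then -0.75 for MRPL1, -0.68 for COQ3, -0.56 for NDUFAF4, -0.45 for TFAM, -0.28 for DLD and 0.39 for MRPS24. Leaving out the control labelled MDA-MB-453 alone ended the call for 10 of the 12, all but COQ3 and MRPL1, and left 680 of all genes past the threshold. Tissue-specific and alternative subunit isoforms outside the rule passed in 0 of 8 tested genes.

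Promoter sequence was looked up for the members in RefSeq's table for GRCh38.p14, where 62 of the 78 had an entry. Motifs known from respiratory genes were counted on both strands, overlaps allowed. The palindromic NRF1 motif was in 4 of the 62 windows (6.45%, against 1.36% of all 27305 windows of that length), the ETS motif CCGGAAG in 19 (30.6%, against 10.7%) and the YY1 motif AAGATGGC in 11 (17.7%, against 3.03%). The SP1 motif GGGCGG was in 37 (59.7%, against 44.6%), and CCAAT in 20 (32.3%, against 35.7%). A match is a description of the sequence only. The windows of the members with the smallest p-values after ATP5J2 are shown for where the motifs lie, which stand in capitals. NDUFS6 (chr5:1801157-1801456, plus strand) holds GGGCGG on the reverse strand, SDHD (chr11:112086623-112086922, plus strand) holds the NRF1 palindrome and, on the reverse strand, the ETS motif, and NDUFB2 (chr7:140696458-140696757, plus strand) holds GGGCGG at 2 places.
NDUFS6: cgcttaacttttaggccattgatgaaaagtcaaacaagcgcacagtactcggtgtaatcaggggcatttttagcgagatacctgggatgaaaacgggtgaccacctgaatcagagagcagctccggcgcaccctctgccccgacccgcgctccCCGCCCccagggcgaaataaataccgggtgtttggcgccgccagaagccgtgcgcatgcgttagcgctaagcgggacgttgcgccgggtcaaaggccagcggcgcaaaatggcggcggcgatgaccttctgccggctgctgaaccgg
SDHD: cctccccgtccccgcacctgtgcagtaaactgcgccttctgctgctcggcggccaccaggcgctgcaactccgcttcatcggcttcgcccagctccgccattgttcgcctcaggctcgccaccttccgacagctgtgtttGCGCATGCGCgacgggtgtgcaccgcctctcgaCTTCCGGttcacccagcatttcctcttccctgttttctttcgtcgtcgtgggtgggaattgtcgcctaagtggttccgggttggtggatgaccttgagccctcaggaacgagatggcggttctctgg
NDUFB2: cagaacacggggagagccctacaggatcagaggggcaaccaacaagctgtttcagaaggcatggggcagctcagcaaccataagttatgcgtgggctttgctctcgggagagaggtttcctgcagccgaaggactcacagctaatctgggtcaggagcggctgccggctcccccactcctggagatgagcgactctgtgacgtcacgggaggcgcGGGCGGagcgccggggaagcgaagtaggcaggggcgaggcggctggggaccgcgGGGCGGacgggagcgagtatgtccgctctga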

How the data were processed

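RNA of 9 libraries was sequenced. The authors deposited 1 table of RPKM (reads scaled to gene length and library size), with all 9 value columns used here and 0 left out. Per the submitters' processing notes, STAR, HTSeq and GRCh38 were used; no version, annotation or strand setting is stated there. Multiplied by exon lengths of GENCODE release 29, deposited RPKM values under 20 reads were whole reads within 0.05 reads in 100% of cases in every library (92.4% of gene identifiers occur there in the same version), which gave the depths printed. Intervals for comparisons of conditions reflect the spread between lines, and cover nothing else. Those for MDA-MB-436 against MDA-MB-231 come from the same fit. They reflect only the spread that line and treatment leave among all 9 libraries.

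Members, gene lists, the named-gene rule and alternatives were chosen with earlier results of these data known. Genes at 1 RPKM or more in at least 3 of 9 libraries were tested (12965). Values were fitted as log2(RPKM + 1), pseudocount 1, which understates the change of low genes, with limma 3.58.1 in R 4.3.3 with trend moderation, treatment and line as terms (4 residual degrees of freedom), two-sided p-values and Benjamini-Hochberg adjustment over all tested genes at 0.05. Errors of log2 differences are half-widths of 95% confidence intervals. The difference between lines used a mean per line in the control and under the interventions (3 residual degrees of freedom, all from GSK343 against shEZH2 within lines). The scripts were tested on simulated data. Lines pair the libraries by their labels: deviations from group means correlated at 0.358 to 0.953 within lines and -0.914 to 0.0903 between lines. Such deviations cancel out within a group, which pushes the values between lines below those within lines, so they are no separate evidence.

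Named members are those past the threshold, per complex the 3 with the smallest p for the mean of both interventions and the highest and lowest level, the 5 with the smallest p between lines, up to 5 per direction for MDA-MB-436 against MDA-MB-231, and up to 3 called genes per other list. NDUFV2 and MRPS24 were named after their values were seen. Alternatives were pseudocount, filter, scaling, moderation, pairing and leaving out libraries or lines; 1 more, the scaling of counts within lines, was added after the data were seen. Promoter windows come from RefSeq (GRCh38.p14) and gene annotation from GENCODE. A further marker of the lines is not reported here.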

Additional observations from a re-analysis of the deposited data

Results flagged for a closer look

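Many subunit genes had both intervention libraries of one line on one side of control and both of another line on the other side. Of the 75 tested members, 27 lay below control in MDA-MB-436 and above it in MDA-MB-231 (6.89% of all genes), and 0 the other way (13.3% of all genes). For MDA-MB-436 against the libraries labelled MDA-MB-453 it was 20 (11.1% of all genes) and 0 (17.5%), and for MDA-MB-231 against those libraries 4 (9.90%) and 18 (8.62%). Both libraries of a line share its control. In MDA-MB-436, 73 members lay below control in both comparisons and 1 above it in both. The counts that involve this line thus largely repeat its shift, and left almost no room for the opposite direction.

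Among the members named in the results, the values below are the mean log2 difference from control in one line minus that in another. For MDA-MB-436 minus MDA-MB-231 it was -0.97 for ATP5O, -0.80 for COX7B, -0.58 for SDHB, -0.58 for COX6C, -0.50 for UQCRB, -0.46 for COX8A, -0.40 for UQCRC2 and -0.33 for SDHC. For MDA-MB-436 minus the libraries labelled MDA-MB-453 it was -1.63 for ATP5D, -1.43 for NDUFB7, -1.05 for NDUFS7, -0.97 for NDUFS8, -0.72 for CYC1, -0.64 for COX8A, -0.50 for ATP5SL and -0.28 for SDHA. For MDA-MB-231 minus the libraries labelled MDA-MB-453 it was 0.72 for COX7B, 0.68 for ATP5O, 0.63 for UQCRB, 0.59 for UQCRC2, 0.49 for SDHC, 0.48 for SDHB, 0.19 for COX6C, -0.45 for CYC1 and -0.15 for SDHA. Limma's F-test of a difference between lines passed for none of these genes, with adjusted p from 0.08 for ATP5D to 0.416 for SDHA.

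Medians of complexes were opposed as well, and these differences were not tested. The complex IV median differed by -0.65 for MDA-MB-436 minus MDA-MB-231. The complex II median differed by -0.31 for MDA-MB-436 minus MDA-MB-231, and by 0.27 for MDA-MB-231 minus the libraries labelled MDA-MB-453.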

How the results depend on the processing

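No called member reversed under the alternatives run, nor did the 12 named genes of the other lists. The medians of the members and the sums by complex moved by less than the spread between lines. That spread is wide. The SD of the line medians was 0.32 for GSK343, 0.18 for shEZH2 and 0.24 for the mean of both, beside medians of -0.14, -0.20 and -0.19. A median near 0 could thus count as unmoved, as for the mean of both without MDA-MB-436 (-0.05). The median of GSK343 against shEZH2, 0.06, was -0.0041 with a common sum and -0.06 without the MDA-MB-231 library labelled GSK343. Counts of members past the threshold are small and moved. For shEZH2 against control 1 member passed, and 0 without a filter and 2 with a common sum of genes outside the mitochondrial genome. For the mean of both interventions 1 passed, and 0 without a filter, 3 at a mean RPKM of at least 5, 4 when rescaled by median ratios, and 2 with either common sum or with robust variances. Lines pair the libraries; without the replicate block 0 members passed for shEZH2 and 0 for the mean of both, and of all genes 2 and 3, against 1377 and 2141 with it (2 against 1018 for GSK343). Without a filter on low values 14, 15 and 186 of all genes passed for GSK343, shEZH2 and the mean of both, and 887 against 3 for the difference between lines; at a mean of at least 5 RPKM 1386 passed for the mean of both, 4722 against 8224 between MDA-MB-436 and MDA-MB-231, and 7 for the difference between lines. For ATP5J2 the adjusted p of limma ranged from 0.0343 to 0.502 for shEZH2 and from 0.0178 to 0.353 for the mean of both over all alternatives. Of the 12 named genes of the other lists, 12 lost the call without a filter, 12 without the block and 12 without the libraries labelled MDA-MB-453. In that last setting 180 of all genes passed for the mean of both. Leaving out a single library ended the call for 1 to 10 of the 12, and leaving out MDA-MB-436 or MDA-MB-231 for 4 each. NRF1, DLD, COQ7 and TFB2M lost the call under the most settings. Leaving out single libraries or lines gave 0 to 1 for GSK343, 0 to 4 for shEZH2, 0 to 8 for the mean of both (8 and 4 without the MDA-MB-231 control) and 0 to 44 for the difference between lines; the last setting removes the spread between the 2 intervention libraries of MDA-MB-231. Within MDA-MB-231 under GSK343, members past 1.25-fold numbered 1 below and 13 above control by median ratios, and 5 below and 4 above with a common sum. Within the libraries labelled MDA-MB-453 under GSK343, 6 were above with a common sum. Depth limits chiefly the low members, of which NDUFA7 had as few as 2 reads in a library; with 1 library per line and condition, the number of libraries limits the precision of the rest.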
